A study of Mus musculus with 17 samples.

Results

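Aminoacyl-tRNA synthetases are the enzymes that join each amino acid to its transfer RNA (tRNA), the step that supplies the ribosome with charged tRNA. Cytosolic and mitochondrial protein synthesis mostly use separate enzymes made from separate nuclear genes, and the mitochondrial enzymes are imported after they are made. Many cytosolic synthetase genes are known targets of ATF4, the transcription factor whose translation goes up when the kinases of the integrated stress response phosphorylate eIF2 alpha, for example when amino acids are short. The genes were taken by symbol from the 4 deposited count tables: a single amino acid letter followed by "ars", with or without a closing 1 or 2, plus Eprs, Farsa and Farsb. The rule found 37 genes of 35841 gene identifiers in all, and each of the 37 was listed in all 4 tables. Symbols that end in 2 make up the mitochondrial class (17 genes) and the others the cytosolic class (20 genes). Gars and Kars were counted as cytosolic, although each is known to encode both a cytosolic and a mitochondrial enzyme. Lars2, the mitochondrial leucyl-tRNA synthetase, is described apart because reads of ribosomal RNA may be counted on it, which leaves 16 mitochondrial genes in the counts below.

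The study measured RNA in 17 C57BL/6 mouse libraries, 14 from cultured primary neurons and 3 from hippocampus. The neuron libraries form 7 groups of 2: ADM treatment and its control, ApoE particle and control in a first experiment (set 1), and ApoE particle, reconstituted ApoE particle and control in a second experiment (set 2). ApoE, apolipoprotein E, is the main carrier of cholesterol between brain cells, and the particles are carriers that hold it. The labels do not spell out ADM or give a dose or time. The hippocampus groups are 1 library each, from mice given ApoE shRNA (a short hairpin RNA against Apoe) with FC, control shRNA with FC, and control shRNA without FC; FC is not spelled out. No genotype other than the strain, no age and no number of pooled cultures or animals is given, so each p-value measures the spread between these samples, which may be technical.

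Each library held between 14.62 M and 19.14 M counts, and the 2 libraries of each neuron group differed by more than sampling noise. The cultures also held RNA of other cells. Summed over 8 markers, astrocyte transcripts stood at 658 to 4313 CPM (counts scaled to a library size of 1 M) across the neuron libraries, and neuron transcripts at 3853 to 5817 CPM. In bulk RNA, fewer cells of a type and less RNA per cell cannot be told apart. Apoe, the shRNA target, was at 1384 CPM with ApoE shRNA and FC, against 2797 CPM with control shRNA and FC and 1697 CPM with control shRNA without FC.

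The 2 classes were expressed at different levels before any treatment. Per kilobase of transcript, the cytosolic genes of the set 2 control neurons ran from 17.8 CPM per kb (Tars) to 99.0 CPM per kb (Gars) with a median of 40.3 CPM per kb. The mitochondrial genes without Lars2 ran there from 2.26 CPM per kb (Wars2) to 11.4 CPM per kb (Tars2), with a median of 6.60 CPM per kb. The ranges of the classes thus did not overlap in the set 2 control neurons. In the control hippocampus without FC the cytosolic median was 23.6 CPM per kb and the mitochondrial median 7.41 CPM per kb. The ranges overlapped there, with the lowest cytosolic gene at 9.14 CPM per kb (Tars) and the highest mitochondrial gene at 13.8 CPM per kb (Tars2).

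In set 2, the ApoE particle was accompanied by higher RNA of 13 of 20 cytosolic synthetase genes, and none of them fell. None of the 16 mitochondrial genes rose and 1 fell. A gene is said to have risen or fallen when its adjusted p, from edgeR's quasi-likelihood test over all genes tested, was under 0.05. Of 16388 genes tested in set 2, 22.1% passed that threshold, 10.0% rising and 12.1% falling. All 37 genes were abundant enough to be tested. The median log2 fold change was 0.71 over the cytosolic genes, -0.08 over the mitochondrial genes and 0.0007 over all genes tested. The summed cytosolic level was 4142 and 3952 CPM in ApoE particle neurons, against 2470 and 2533 CPM in control neurons, and the summed mitochondrial level was 342 and 348 CPM against 356 and 365 CPM.

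The rise was led by Aars, the alanyl-tRNA synthetase (chromosome 8, 111033144 to 111057664, plus strand, mm10). Its level was 595 and 551 CPM in ApoE particle neurons, against 249 and 258 CPM in control neurons, a log2 fold change of 1.18 ± 0.05 (SE, adjusted p = 4.66e-14). Aars shares 14.3% of its exon bases with Exosc6 on the same strand. Nars, which charges asparagine tRNA, was at 430.4 and 405 CPM with the particle, against 207 and 215 CPM in control, a log2 fold change of 0.98 ± 0.05 (adjusted p = 1.56e-13). In both genes each particle library lay above each control library. Lars, the cytosolic leucyl-tRNA synthetase, was at 198 and 188 CPM with the particle, against 96.7 and 96.4 CPM in control (log2 fold change 1.00 ± 0.06, adjusted p = 8.2e-12). Mars, which charges methionine tRNA, was at 139 and 134 CPM, against 69.4 and 70.2 CPM in control (0.97 ± 0.06, adjusted p = 2.2e-11). Mars overlaps Ddit3 on the opposite strand by 68 exon bases (1.99%). Ddit3 also rose in set 2 (2.31 ± 0.12) and fell in set 1 (-0.70 ± 0.19), and the part of reads in the overlap was not tested. Gars, the glycyl-tRNA synthetase, stood at 432 and 416 CPM with the particle, against 222 and 249.6 CPM in control (0.85 ± 0.05). The groups did not overlap in Lars, Mars or Gars either. The genes given by library were chosen for a low adjusted p or, for Gars, by name, so their lack of overlap is not further support. The share of all genes without overlap is not given here. The other 8 genes that rose were Cars (cysteine, 1.15 on the log2 scale), Tars (threonine, 0.88), Yars (tyrosine, 0.87), Eprs (the joint glutamyl- and prolyl-tRNA synthetase, 0.80), Iars (isoleucine, 0.73), Sars (serine, 0.69), Farsb (the beta subunit of the phenylalanyl-tRNA synthetase, 0.51) and Rars (arginine, 0.24). Rars was not called without the first control library (adjusted p = 0.0647). Leaving out Gars and Kars, which also serve mitochondria, 12 of 18 rose.

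The 7 cytosolic genes that did not pass the test in set 2 were Dars, Farsa, Hars, Kars, Qars, Vars and Wars. Kars, the lysyl-tRNA synthetase, was at 149 and 149.98 CPM with the particle, against 149.8 and 151 CPM in control. Wars, which charges tryptophan tRNA and is known in human cells as a target of interferon gamma, was at 138 and 121 CPM, against 124 and 123 CPM in control. The groups overlapped in both genes. The 95% interval of the log2 fold change ran from -0.12 to 0.10 for Kars and from -0.05 to 0.20 for Wars. Qars, the glutaminyl-tRNA synthetase, stood lower at 53.9 and 53.9 CPM, against 63.4 and 59.9 CPM in control, and did not pass (log2 fold change -0.19 ± 0.08, adjusted p = 0.0677). The 2 subunits of the cytosolic phenylalanyl-tRNA synthetase differed in their calls: Farsb rose, while Farsa had a log2 fold change of -0.17 ± 0.07 (adjusted p = 0.0818).

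**Figure D1:**
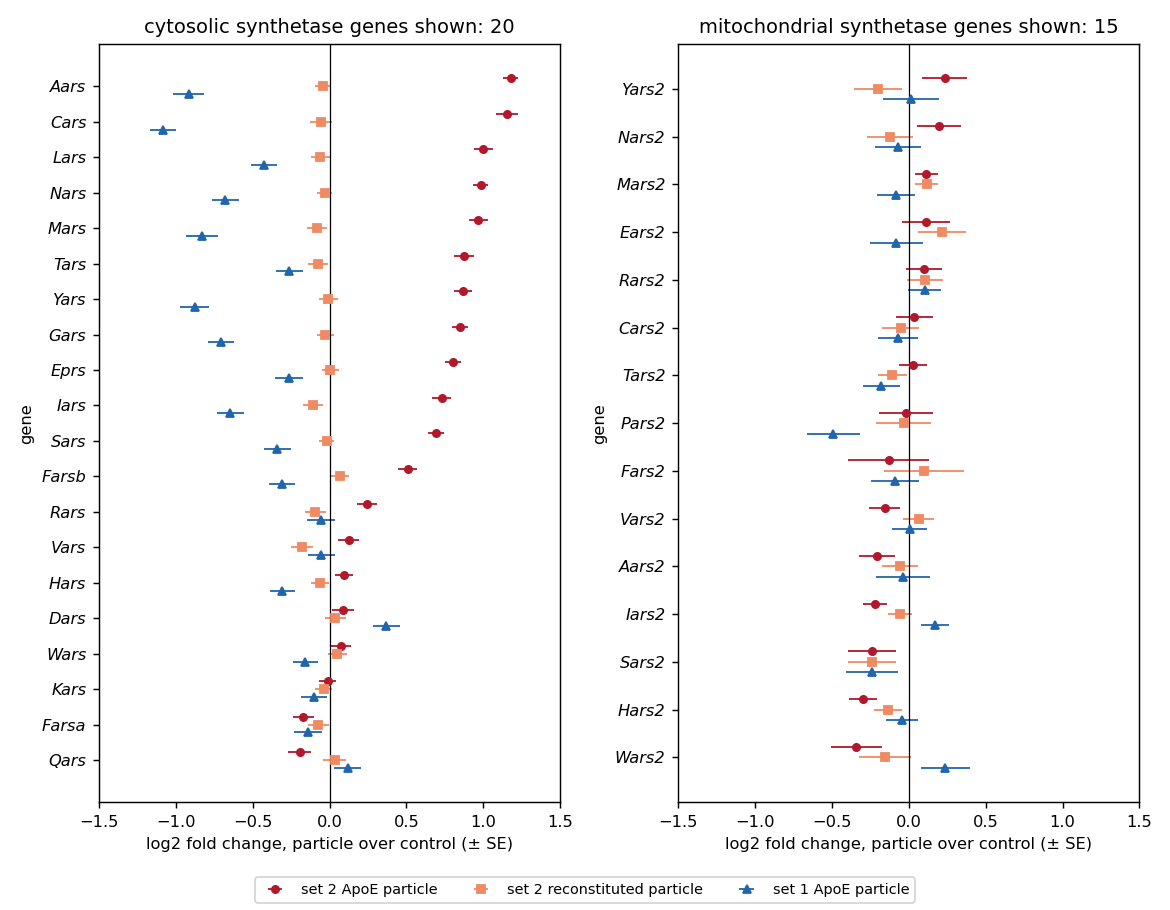
Log2 fold change with its standard error (x axis) for each cytosolic gene (left) and 15 mitochondrial genes without Lars2 (right), particle over control, 2 libraries per group. The set 2 ApoE particle points of the 13 cytosolic genes that rose lie right of 0, the set 1 points of the 13 that fell lie left of 0, and the reconstituted particle points stay near 0 in both classes.

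Cytosolic synthetases differ in whether they sit in the multi-synthetase complex, a particle in which several of the enzymes are held together by the scaffold proteins Aimp1, Aimp2 and Eef1e1. Among the 8 genes whose enzymes sit in the complex, Eprs, Iars, Lars, Mars and Rars rose, while Dars, Kars and Qars did not pass the test (median log2 fold change 0.49). Of the 12 genes outside it, 8 rose (median 0.77). Of the 3 scaffold genes, Aimp1 (log2 fold change 0.34 ± 0.08) and Eef1e1 (0.21 ± 0.07) rose, and Aimp2 did not pass. No test of the complex members against the others was made.

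On the mitochondrial side of set 2, only Hars2 passed the test. This histidyl-tRNA synthetase gene was at 29.6 and 32.1 CPM in ApoE particle neurons, against 37.2 and 38.9 CPM in control neurons (log2 fold change -0.30 ± 0.09, adjusted p = 0.0196), and neither DESeq2 nor the fits without either control library or without the first particle library called it (-0.33 to -0.24). Hars2 overlaps Hars on the opposite strand by 195 exon bases and no source used here gives the strand setting of the counting, so reads in the overlap cannot be assigned. At an unadjusted p under 0.05 stood 2 of the 16 genes, Hars2 and Iars2 (isoleucine, -0.22 ± 0.08). For 14 amino acids a cytosolic gene was paired with a mitochondrial gene. Phenylalanine, proline and leucine also have genes in both classes but were not paired, so the count does not cover them. The cytosolic log2 fold change was above its mitochondrial partner in all 14 of these pairs, by a median of 0.74. For alanine it was 1.18 for Aars and -0.21 for Aars2, and for cysteine 1.15 for Cars and 0.04 for Cars2.

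The promoters of the cytosolic genes were searched for the C/EBP-ATF response element, the sequence that ATF4 recognises together with C/EBP proteins, because several synthetase genes are known to be under ATF4. RefSeq windows (GRCm38.p6, 250 bases before to 50 bases after a start) matched 27 of the 37 genes, 13 cytosolic and 14 mitochondrial. Lars2 is counted among the 14 here. Cars, Hars, Lars, Nars, Rars, Vars, Wars, Hars2 and Pars2 are among the genes without a window. The letters TGATGNAA, on either strand, were found for 5 of 13 cytosolic genes (38.462%) and 0 of 14 mitochondrial genes. Of all 27025 genes with RefSeq windows, 4.511% held them. The 5 genes were Aars, with 2 matches, and Gars, Iars, Tars and Yars, and each of them rose in set 2 (median log2 fold change 0.87). Of the other 8 cytosolic genes with a window, 4 rose (median 0.30). A second search, on either strand, was for the core of the interferon-stimulated response element. It matched 1 of 13 cytosolic genes (Qars), 0 of 14 mitochondrial genes and 3.993% of all genes with windows. A match is a description of the letters and not evidence of binding.

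The stretches from 120 bases before to 20 bases after the start are shown for the 5 genes with a match and for Kars, a gene without one whose level did not pass the test. They lie at chr8:111033722-111033861 (Aars, plus strand), chr6:55037881-55038020 (Gars, plus), chr13:49682010-49682149 (Iars, plus), chr15:11399639-11399778 (Tars, minus), chr4:129189783-129189922 (Yars, plus) and chr8:112011335-112011474 (Kars, minus). Each is written 5′ to 3′ along the gene's strand, and the capitals mark TGATGNAA or its reverse complement.
Aars: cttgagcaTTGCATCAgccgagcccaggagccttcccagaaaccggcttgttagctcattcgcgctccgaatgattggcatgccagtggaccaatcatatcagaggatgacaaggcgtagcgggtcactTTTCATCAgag
Gars: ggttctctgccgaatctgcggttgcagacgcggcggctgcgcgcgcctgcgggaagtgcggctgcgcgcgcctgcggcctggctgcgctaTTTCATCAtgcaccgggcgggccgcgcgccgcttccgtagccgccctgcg
Iars: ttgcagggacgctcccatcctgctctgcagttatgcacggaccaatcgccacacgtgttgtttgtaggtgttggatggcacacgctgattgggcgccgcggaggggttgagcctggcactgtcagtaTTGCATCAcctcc
Tars: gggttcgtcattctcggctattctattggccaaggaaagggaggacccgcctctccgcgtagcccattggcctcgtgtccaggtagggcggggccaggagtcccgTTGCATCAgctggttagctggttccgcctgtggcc
Yars: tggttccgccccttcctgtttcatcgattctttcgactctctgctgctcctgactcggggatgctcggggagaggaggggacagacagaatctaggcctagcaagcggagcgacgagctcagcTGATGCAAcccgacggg
Kars: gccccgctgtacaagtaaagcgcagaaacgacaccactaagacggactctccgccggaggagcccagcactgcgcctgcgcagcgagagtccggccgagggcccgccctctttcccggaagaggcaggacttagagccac

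No gene of either class passed the test with the reconstituted ApoE particle in set 2. Against control, edgeR called 0 of 20 cytosolic and 0 of 16 mitochondrial genes, and DESeq2 called none as well. At an unadjusted p under 0.05 stood 1 cytosolic gene, Vars (valine, log2 fold change -0.18 ± 0.07), and 0 mitochondrial genes. The background was the same: 0.0% of 16388 genes were called, with 776 at an unadjusted p under 0.05. The median log2 fold change was -0.04 over the cytosolic and -0.06 over the mitochondrial genes. The 95% intervals of the 20 cytosolic genes all lay between -0.32 and 0.19, and those of the mitochondrial genes between -0.56 and 0.67. For Aars the interval was -0.15 to 0.07, and for Gars -0.14 to 0.09.

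Set directly against the ApoE particle, the reconstituted particle had lower RNA of 14 of 20 cytosolic genes, while 1 cytosolic gene was higher and 1 of 16 mitochondrial genes was lower. Of all genes tested, 20.3% passed, 11.4% higher and 8.88% lower with the reconstituted particle. This comparison shares its ApoE particle libraries with the comparison to control. Aars was at 258 and 235 CPM with the reconstituted particle, against 595 and 551 CPM with the ApoE particle (log2 fold change -1.22 ± 0.05, adjusted p = 2.57e-14). Nars was at 213 and 200.01 CPM against 430.4 and 405 CPM (-1.02 ± 0.05), Lars at 97.7 and 87.5 CPM against 198 and 188 CPM (-1.06 ± 0.06), and Mars at 68.1 and 63.7 CPM against 139 and 134 CPM (-1.05 ± 0.06). Gars was at 239 and 224 CPM against 432 and 416 CPM (-0.88 ± 0.05). In each of these 5 genes both reconstituted particle libraries lay below both ApoE particle libraries, but they too were chosen for a low adjusted p or by name. Kars was at 143 and 150.1 CPM with the reconstituted particle, against 149 and 149.98 CPM with the ApoE particle, and Wars at 126 and 129 CPM against 138 and 121 CPM; both overlapped and did not pass. Vars joined the 13 genes named above (-0.30 ± 0.07, adjusted p = 0.00268), with 80.9 and 84.5 CPM against 109.5 and 94.7 CPM; without the first ApoE particle library it did not pass (-0.20, adjusted p = 0.111). Qars was the exception in direction, at 59.3 and 66.8 CPM with the reconstituted particle, against 53.9 and 53.9 CPM with the ApoE particle (0.23 ± 0.08, adjusted p = 0.0343); neither DESeq2 nor the fit with a replicate block called it, nor the fits without either ApoE particle library or without the second reconstituted library (0.13 to 0.23). The mitochondrial exception was Yars2 (tyrosine), at 14.3 and 11.96 CPM against 20.7 and 14.8 CPM (-0.43 ± 0.15, adjusted p = 0.0476). Its ApoE particle libraries differed from each other by more than the group means did. The Yars2 value was -0.17 without the first ApoE particle library and -0.32 without the second reconstituted library, and neither passed. The astrocyte marker sum was 1545 and 1619 CPM with the reconstituted particle, against 1040 and 1137 CPM with the ApoE particle, and its part in these differences was not tested.

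**Figure D2:**
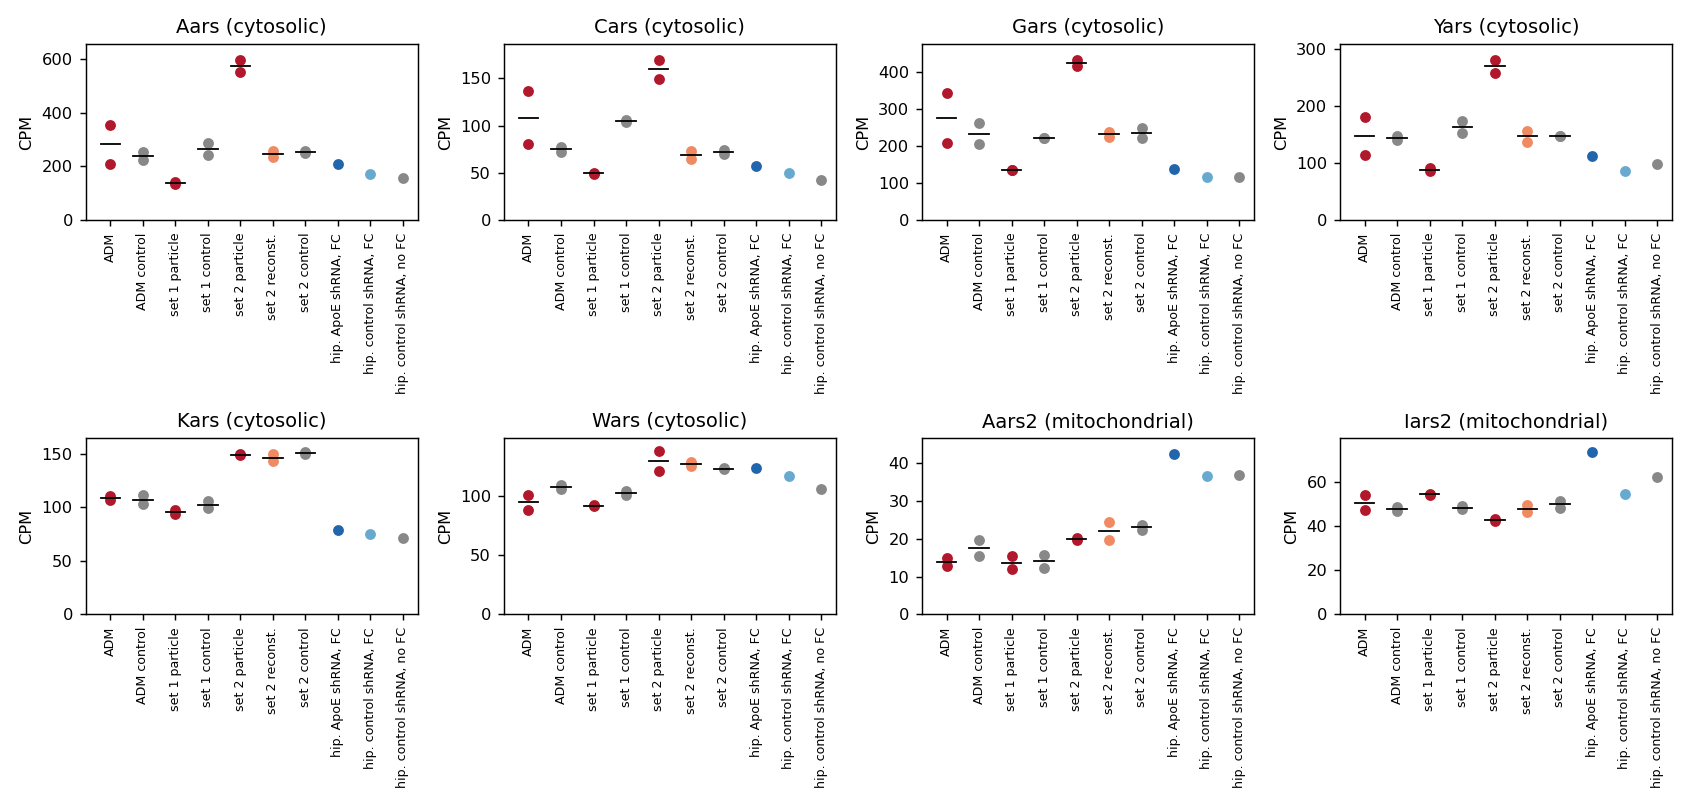
CPM (y axes, from 0) of 6 cytosolic and 2 mitochondrial genes in the 17 libraries, with 1 point per library and a bar at the mean of groups with 2. Aars, Cars, Gars and Yars stand highest in the set 2 ApoE particle libraries and, within set 1, lower in the particle libraries than in control; Kars, Wars, Aars2 and Iars2 differ less between the groups of a set.

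In set 1 the ApoE particle went with lower, not higher, RNA of the cytosolic genes: 13 of 20 fell and 1 rose. None of the 16 mitochondrial genes rose and 1 fell. Of 16475 genes tested, 36.4% passed the threshold, 18.9% rising and 17.4% falling. The median log2 fold change was -0.31 over the cytosolic genes, -0.07 over the mitochondrial genes and -0.006 over all genes. The summed cytosolic level was 1785 and 1746 CPM in ApoE particle neurons, against 2354 and 2467 CPM in control neurons. The mitochondrial sum was 334 and 328 CPM against 324 and 349 CPM, so those libraries overlapped. The count depended on the libraries and the scaling: 7 and 8 cytosolic genes fell when the second or the first particle library was left out, 9 when libraries were scaled by their totals alone and 11 in DESeq2. Scaling by totals also moved the median of all genes to 0.098.

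Cars, the cysteinyl-tRNA synthetase, was at 49.0 and 49.8 CPM in ApoE particle neurons, against 103 and 106 CPM in control neurons, a log2 fold change of -1.09 ± 0.08 (adjusted p = 5.53e-06). Yars was at 91.4 and 85.9 CPM with the particle, against 152 and 173 CPM in control (-0.88 ± 0.09, adjusted p = 4.39e-05). Both genes had each particle library below each control library. Aars was at 144 and 136 CPM with the particle, against 243 and 285 CPM in control (-0.92 ± 0.10, adjusted p = 4.96e-05). Gars was at 135.5 and 135.5 CPM, against 222 and 221 CPM in control (-0.71 ± 0.08, adjusted p = 8.61e-05). These 2 genes did not overlap between groups either, but genes given by library were again chosen for a low adjusted p or by name. The other 9 that fell were Mars (-0.83), Nars (-0.68), Iars (-0.65), Lars (-0.43), Sars (-0.34), Farsb (-0.31), Hars (-0.31), Eprs (-0.27) and Tars (-0.26). Eprs and Tars were not called by DESeq2, nor without either particle library.

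Dars, the aspartyl-tRNA synthetase, moved against the rest of its class in set 1, with 113.5 and 113 CPM in ApoE particle neurons, against 92.5 and 82.7 CPM in control neurons (0.37 ± 0.09, adjusted p = 0.00726). It was not called when either particle library was left out. Kars (93.8 and 97.3 CPM against 106 and 99.2 CPM) and Wars (91.6 and 92.6 CPM against 101 and 104 CPM) did not pass the test, nor did Farsa, Qars, Rars and Vars. Within the multi-synthetase complex, Eprs, Iars, Lars and Mars fell and Dars rose, and none of the 3 scaffold genes passed. Outside it, 9 of 12 fell. Pars2, which charges proline tRNA in mitochondria, was the single mitochondrial gene that fell, at 8.17 and 6.86 CPM with the particle, against 9.99 and 11.1 CPM in control (-0.49 ± 0.17, adjusted p = 0.0466). Pars2 was not called by DESeq2, nor without either particle library or the second control library (-0.62 to -0.37), while 3 mitochondrial genes fell without the first control library. The cytosolic log2 fold change lay below its mitochondrial partner in 13 of the same 14 pairs, by a median of -0.33.

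Markers of other cells moved in set 1 as well. All 7 tested microglia markers rose, and their sum over 8 genes was 208 and 208 CPM in ApoE particle neurons, against 64.7 and 54.6 CPM in control neurons, with Tmem119 at 0 in 1 control library. The 5 markers of proliferating cells all rose, and their sum was 413 and 492.5 CPM against 121 and 109 CPM. Astrocyte markers rose in 6 of 8 cases and fell in 1, with sums of 4313 and 4125 CPM against 3285 and 3030 CPM. Neuron markers fell in 7 of 8 cases, with sums of 4012 and 3853 CPM against 5139 and 5578 CPM. In set 2 the astrocyte sum was 1040 and 1137 CPM in ApoE particle neurons, against 1624 and 1514 CPM in control neurons (6 of 8 markers fell and 1 rose), and the neuron sum was 4770 and 4818 CPM against 5071 and 5090 CPM (4 of 8 fell and 1 rose). Proliferating-cell markers fell in 4 of 5 cases in set 2, and microglia markers were at or near 0 there, with sums from 0.334 to 1.51 CPM over the 6 libraries. The part of these shifts in the synthetase results was not tested.

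Across the 2 sets, which share no library, the genes that fell in set 1 were largely those that rose in set 2. Of the 13 cytosolic genes that fell in set 1 and the 13 that rose in set 2, 12 were in common: Aars, Cars, Eprs, Farsb, Gars, Iars, Lars, Mars, Nars, Sars, Tars and Yars. Hars fell in set 1 and did not pass in set 2, and Rars rose in set 2 and did not pass in set 1. Over the 20 cytosolic genes the 2 sets of log2 fold changes had a Pearson correlation of -0.83 and a Spearman correlation of -0.83. This is a description across genes, which are not independent replicates. Of all genes tested, 17.4% fell in set 1 and 10.0% rose in set 2. The share of all genes that did both and the correlation over all genes were not computed. Whether the reversal is particular to these genes was therefore not tested. Over the 16 mitochondrial genes the Pearson correlation was -0.20.

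**Figure D3:**
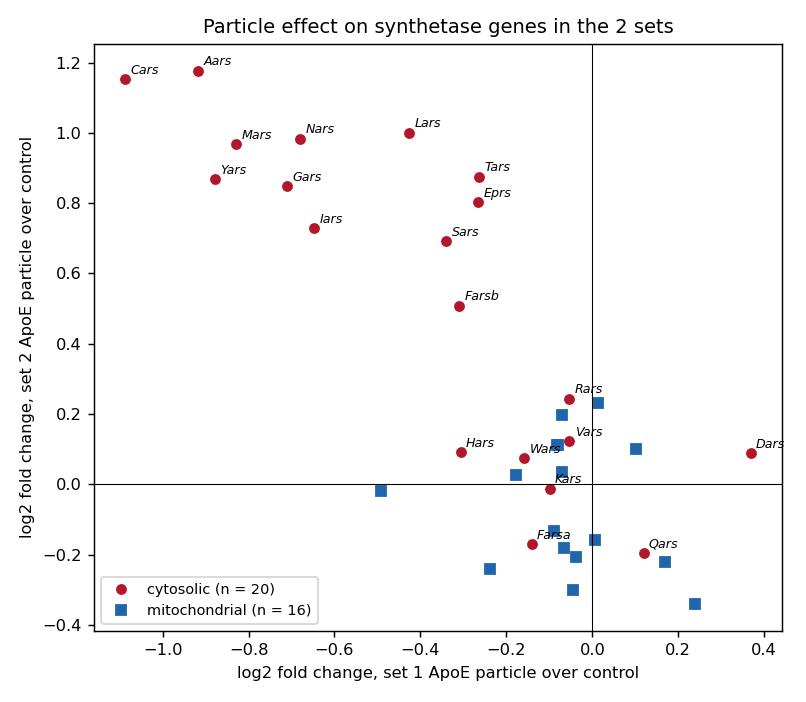
Log2 fold change of the ApoE particle over control in set 1 (x axis) and set 2 (y axis), with 1 point per gene. Of the cytosolic genes, 12 that fell in set 1 and rose in set 2 fill the upper left, and the mitochondrial genes gather around 0.

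The difference of the particle effect between the sets was tested as an interaction. It was positive, so the effect in set 2 was above that in set 1, for 13 of 20 cytosolic genes and negative for 1, and it was negative for 2 of 16 mitochondrial genes. Of 17098 genes, 31.1% passed, 14.8% positive and 16.4% negative. The largest difference among the cytosolic genes was that of Cars, 2.21 ± 0.11 on the log2 scale (adjusted p = 4.98e-09). In set 2 Cars was at 169 and 149 CPM with the particle, against 69.6 and 73.7 CPM in control, while in set 1 it fell. Aars (2.07 ± 0.11), Nars (1.63 ± 0.10) and Yars (1.72 ± 0.11) followed by adjusted p. Nars had 169.8 and 160.2 CPM with the particle in set 1, against 258 and 271 CPM in control. Yars had 281 and 257 CPM with the particle in set 2, against 147 and 148 CPM in control. In these 4 genes, chosen for a low adjusted p, the particle libraries lay above control in set 2 and below it in set 1. The negative ones were Qars (-0.34 ± 0.10, adjusted p = 0.0213), Iars2 (-0.42 ± 0.11, adjusted p = 0.00974) and Wars2 (tryptophan, -0.61 ± 0.21, adjusted p = 0.0421). Iars2, at 42.2 and 43.3 CPM with the set 2 particle against 48.2 and 51.4 CPM in control and at 54.1 and 54.5 CPM with the set 1 particle against 47.6 and 48.9 CPM in control, was not called without the second set 2 control library (-0.36, adjusted p = 0.0558). Wars2 was called neither in DESeq2 nor without any library but the second set 1 control (-0.62 to -0.51 in the fits that lost it), and Qars neither in DESeq2 nor without either particle library of either set or the first set 2 control (-0.36 to -0.30). Hars was not called without the second set 1 particle library (0.35). Iars2 shares 22.9% of its exon bases with Rab3gap2 on the opposite strand. The experiment and any difference in culture, date or reagent between the sets cannot be told apart.

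**Figure D4:**
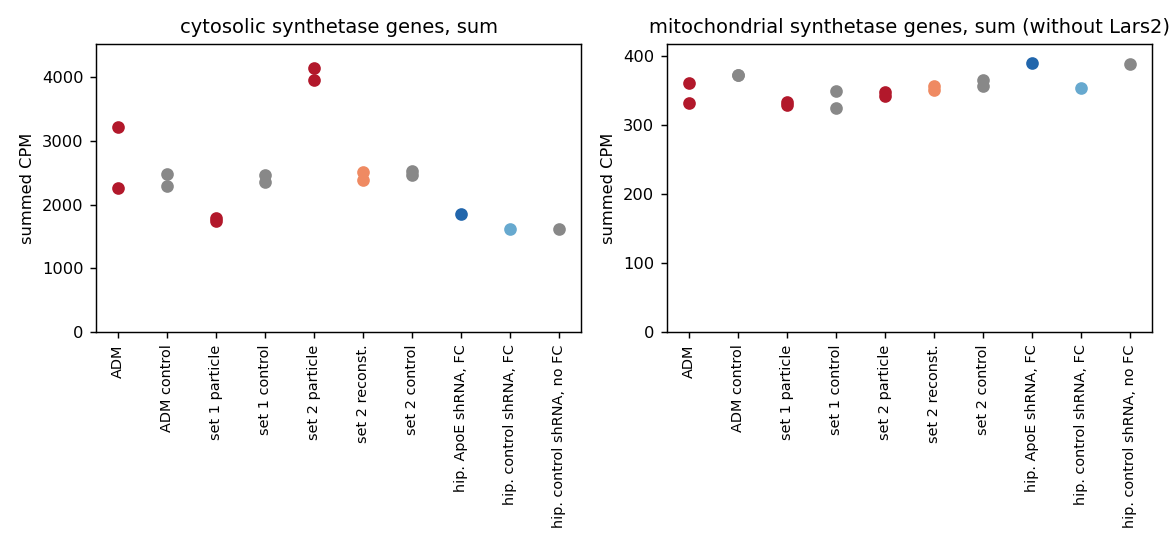
Summed CPM (y axes, from 0) of the 20 cytosolic genes (left) and of the 16 mitochondrial genes without Lars2 (right), 1 point per library. The cytosolic sums of the set 2 ApoE particle libraries (4142 and 3952 CPM) stand highest, and the mitochondrial sums stay between 324 and 391 CPM in all 17 libraries.

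Genes of the amino acid response moved with the cytosolic synthetases. Of 24 genes on a list of ATF4 and amino acid deprivation genes, 22 rose and 0 fell with the ApoE particle in set 2 (median log2 fold change 1.65), and Slc7a11 and Nupr1 did not pass. They included Atf5, a transcription factor of the stress response (2.85 ± 0.08), Mthfd2, an enzyme of mitochondrial one-carbon metabolism (2.33 ± 0.09), and Psat1, an enzyme of serine synthesis (1.39 ± 0.06). In set 1, 14 of 23 tested genes fell and 3 rose (median -0.53). Among the falls were Atf4 itself (-1.27 ± 0.09), the amino acid transporter gene Slc7a3 (-2.39 ± 0.17) and the asparagine synthetase gene Asns (-1.20 ± 0.10); the 3 that rose were Phgdh, Psat1 and Sesn2. Atf4 was at 335 and 313 CPM with the set 2 particle, against 124 and 143 CPM in control. With the reconstituted particle none of the 24 was called against control.

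Among the genes of eIF2 alpha kinases and phosphatase regulators, Eif2ak2, the kinase PKR that double-stranded RNA activates, fell with the ApoE particle in set 2 (-3.01 ± 0.09) and rose in set 1 (1.47 ± 0.13). Its level in set 2 was 8.51 and 8.30 CPM with the particle, against 69.5 and 65.8 CPM in control. In the set 1 controls Eif2ak2 was at 10.8 and 13.1 CPM. Ppp1r15a, which encodes a stress-induced subunit of the eIF2 alpha phosphatase (1.11 ± 0.11), Ppp1r15b (0.50 ± 0.07) and the kinase gene Eif2ak3 (0.38 ± 0.09) rose in set 2. In set 1 Ppp1r15b fell (-0.29 ± 0.08). All 10 interferon genes on a list fell with the set 2 particle (median -4.80), among them the antiviral genes Oasl2 (-9.02 ± 0.09) and Ifit1 (-8.00 ± 0.21). Each of the 10 stood higher in the set 2 controls than in the set 1 and ADM controls. Oasl2 was at 375 and 379 CPM in the set 2 controls and at 0.65 and 0.78 CPM with the set 2 particle. In the set 1 controls it was at 1.88 and 1.54 CPM, and in the ADM controls at 0.30 and 3.32 CPM. The gap was smaller for Irf1, at 7.26 and 6.97 CPM in the set 2 controls against 5.58 and 4.57 CPM in the set 1 controls. In set 1, 7 of the 10 rose and 1 fell (median 1.18), with Gbp2 at 1.76 ± 0.21. So 7 of the 10 fell in set 2 and rose in set 1, 1 fell in both sets, and 2 did not pass in set 1. Their part in the synthetase results was not tested.

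Other genes of the translation machinery are given beside the background of 22.1% of all genes called in set 2 and 36.4% in set 1. Of 8 cytosolic elongation factor genes, Eef1a1 (0.19 ± 0.03) and Eef2 (0.11 ± 0.04) rose and Eef1a2 (-0.17 ± 0.05) fell in set 2, and Eef1a2 (-0.73 ± 0.09) and Eef2k (-0.34 ± 0.09) fell in set 1. Of 19 mitochondrial translation factor genes, Mrrf, the ribosome recycling factor (0.41 ± 0.11), and Gatc, a subunit of the enzyme that makes glutaminyl-tRNA in mitochondria (0.24 ± 0.08), rose in set 2 and Tufm, the mitochondrial elongation factor Tu (-0.29 ± 0.07), fell. In set 1, edgeR called 0 of those 19, and the lowest p was that of Qrsl1 (0.48 ± 0.18, adjusted p = 0.0599). None of 9 synthetase-like and tRNA charging helper genes was called in set 2. In set 1, of 8 tested, Prorsd1 rose (1.44 ± 0.27) and Dtd1, which removes wrongly attached D-amino acids from tRNA, fell (-0.43 ± 0.11). Of 10 nuclear genes that reflect mitochondrial content, Ndufs1 rose (0.22 ± 0.07) and citrate synthase (Cs, -0.13 ± 0.04) fell in set 2, while in set 1 Ppargc1a rose (0.50 ± 0.10) and Tomm20 fell (-0.27 ± 0.09). With 2 of 10 called in each set, that list was not above the background in either.

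With ADM no synthetase gene passed the test. Against its control edgeR called 0 of 20 cytosolic and 0 of 16 mitochondrial genes, and DESeq2 called none of these 36 either. At an unadjusted p under 0.05 stood 0 cytosolic genes and 1 mitochondrial gene, Mars2 (methionine, -0.38 ± 0.14). Of 16191 genes, 0.0% were called, with 1426 at an unadjusted p under 0.05. That fit had no replicate block, while differences between same-numbered libraries correlated at 0.48 between ADM and control. With a replicate block more genes were called, none of them a synthetase gene. The cytosolic median was 0.23 and 17 of 20 genes had a positive value, against 8398 of 16191 over all genes. That median rested on 1 library: the cytosolic sum was 3221 and 2255 CPM in the ADM libraries, against 2487 and 2285 CPM in the control libraries. Without the first ADM library the median was -0.08, and without the second it was 0.41. Aars was at 356 and 208 CPM with ADM, against 253 and 223 CPM in control, and Gars at 343 and 208 CPM against 261 and 206 CPM, so the groups overlapped. Kars was at 110.5 and 107 CPM against 112 and 103 CPM and overlapped too. Wars was at 88.3 and 101 CPM, below the 106 and 109 CPM of control, and did not pass (-0.18 ± 0.14). The second ADM library also stood apart in its markers of vessels and fibroblasts, which summed to 51.2 and 1141 CPM with ADM against 18.7 and 71.4 CPM in control; their part was not tested. The 24 amino acid response genes had a median of 0.65 and none was called, and Asns showed the same split, at 224 and 107 CPM with ADM against 136 and 105 CPM in control.

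The hippocampus groups had no replicates, so their differences have no replicate check and carry no p-value. A gene counts as past the fold when its absolute log2 ratio of CPM was at least 0.5 and the higher library held at least 100 counts, and intervals are exact 95% binomial intervals that cover counting error only. Between ApoE shRNA and control shRNA, both with FC, 0 of 20 cytosolic genes and 1 of 16 mitochondrial genes were past the fold, against 27.4% of 12474 genes (6.66% higher and 20.7% lower). Of the cytosolic genes, 19 of 20 were higher with ApoE shRNA (median log2 ratio 0.21), against 5993 of 12474 over all genes (median -0.02). Hars, the cytosolic histidyl-tRNA synthetase, had the largest cytosolic ratio, at 76.9 CPM with ApoE shRNA against 57.6 CPM with control shRNA (0.42, interval 0.30 to 0.53). Gars was at 139 against 115 CPM (0.27, interval 0.19 to 0.35), Kars at 79.0 against 75.6 CPM (0.06, interval -0.04 to 0.17) and Wars at 124 against 117 CPM (0.08, interval -0.01 to 0.16).

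The control shRNA library with FC stood apart from the other 2 in its markers. Microglia markers summed to 250 CPM with ApoE shRNA and FC, against 1482 CPM with control shRNA and FC and 329 CPM with control shRNA without FC, and the interferon gene Gbp2 was at 2.22, 303 and 3.03 CPM in the same order. The ApoE shRNA library stood apart in mitochondrial ribosomal RNA: mt-Rnr1 was at 598 CPM, against 2726 and 2338 CPM with control shRNA with and without FC, and mt-Rnr2 at 966 CPM against 3840 and 3355 CPM. The part of these differences in the ratios was not tested. With control shRNA, FC against no FC had 0 cytosolic and 0 mitochondrial genes past the fold in either direction, against 20.4% of 12510 genes (14.3% higher and 6.13% lower). The medians were -0.04 over the cytosolic and -0.11 over the mitochondrial genes. ApoE shRNA with FC against control shRNA without FC likewise had 0 genes of either class past the fold, against 9.93% of 11980 genes (1.78% higher and 8.16% lower). The ApoE shRNA library is the same as in the comparison to control shRNA with FC. Here the cytosolic median was 0.15, with 19 of 20 genes higher, against 6113 of 11980 over all genes (median 0.007). Aars was at 211 against 158 CPM (0.41, interval 0.34 to 0.48). Dars was the cytosolic gene that was lower (-0.24), and the mitochondrial median was -0.04.

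Lars2 (chromosome 9, 123366927 to 123462666, plus strand, mm10) behaved unlike the other mitochondrial genes. It was at 9884 and 9137 CPM in ADM neurons, against 2241 and 626 CPM in their controls, a log2 fold change of 2.73 ± 0.63 that did not pass the test in edgeR (adjusted p = 0.499) and passed in DESeq2 (adjusted p = 2.34e-05). In set 1 it was at 90.2 and 151 CPM in ApoE particle neurons, against 207 and 138 CPM in control neurons (-0.52 ± 0.34); it passed without the second particle library (-0.94, adjusted p = 1.78e-06). In set 2 it was at 2619 and 1324 CPM with the ApoE particle and at 1564 and 1512 CPM with the reconstituted particle, against 1483 and 1439 CPM in control. Among the set 2 groups the 2 ApoE particle libraries differed most from each other, and the log2 fold change over control was -0.14 without the first (adjusted p = 0.0643) and 0.84 without the second (adjusted p = 2.52e-22). The controls of the 3 experiments thus ran from 138 to 2241 CPM, while the sum of the 16 other mitochondrial genes ran from 324 to 373 CPM over the same libraries. In hippocampus Lars2 was at 318 CPM with ApoE shRNA and FC, against 144 CPM with control shRNA and FC and 321 CPM with control shRNA without FC. Its log2 ratio was 1.15 (interval 1.08 to 1.21) between the first 2 and -1.16 (interval -1.23 to -1.09) between control shRNA with and without FC.

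Gm26917, one of the rows taken as able to hold ribosomal RNA, moved alongside Lars2. It was at 1142 and 594 CPM in ADM neurons, against 329 and 55.2 CPM in their controls. In set 2 it was at 470.5 and 191 CPM with the ApoE particle and 262 and 284 CPM with the reconstituted particle, against 227 and 256 CPM in control. In set 1 it was at 19.8 and 33.2 CPM with the particle, against 33.5 and 28.0 CPM in control, and in hippocampus at 33.1, 21.4 and 31.2 CPM in the order given for Lars2. The mitochondrial ribosomal RNA row mt-Rnr1 did not share that spread among the neuron controls with Lars2: it was at 414 and 507 CPM in the ADM controls, 952 and 833 CPM in the set 1 controls and 390 and 381 CPM in the set 2 controls. Whether ribosomal RNA reads were counted on Lars2 was not tested.

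**Figure D5:**
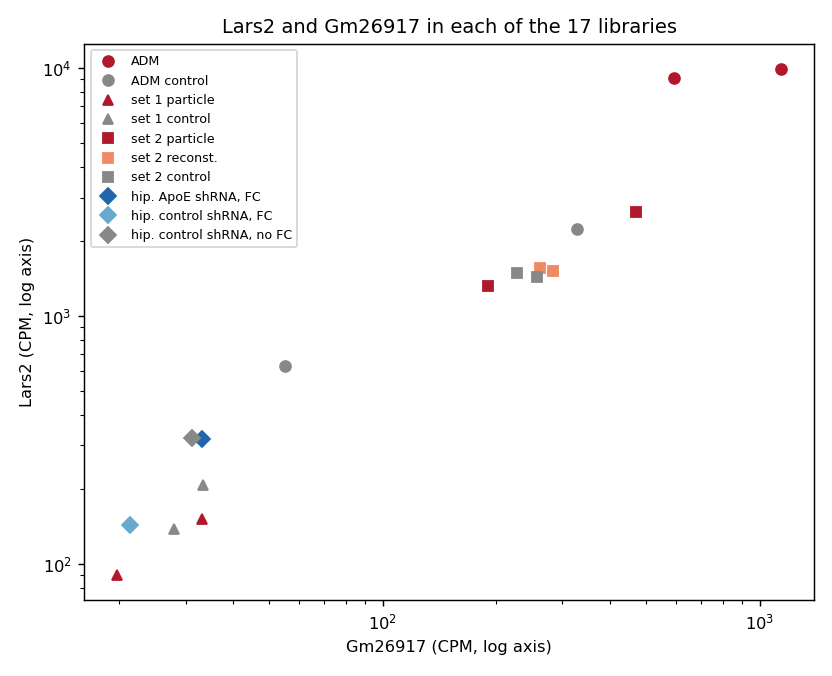
Lars2 (y axis) against Gm26917 (x axis), both in CPM on log axes, with 1 point for each of the 17 libraries. The points spread along a rising diagonal, with the ADM libraries at the upper right and the set 1 and hippocampus libraries at the lower left.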

How the data were processed

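RNA of 14 primary neuron and 3 hippocampus libraries was analysed from 4 tables in which the authors deposited raw counts per gene. Per the submitters' processing notes, the reads went through HTSeq 0.6.0, HISAT2 2.1.0 or Bowtie2 2.2.3 on mm10; the order of these tools, the strand setting and any poly(A) selection are not stated in them. Gene symbols stored as dates were restored from identifiers (25, 25, 25 and 24 in the ADM, set 1, set 2 and hippocampus tables), and 1489 set 2 genes with blank values were left out. Neuron comparisons used edgeR 4.0.16 in R 4.3.3: filterByExpr, TMM scaling, robust dispersions, the quasi-likelihood test and Benjamini-Hochberg adjustment over all genes tested. SE is the absolute log2 fold change over the square root of F. The 3 set 2 groups shared a fit. Neuron CPM are TMM-scaled and hippocampus CPM use library totals, with a prior of 0.5 counts in ratios. Transcript lengths and exon overlaps came from GENCODE M21 (mm10). Totals of 14.62 to 19.14 M counts and 2 libraries per group limit the precision. The fits were also run on simulated counts, drawn independently for each library, and the outcome is not reported here. Those counts held no pairing of libraries and no shift in cell mix. Alternatives were DESeq2 1.42.0, other scalings, no filter on low counts, a replicate block, fits on 2 groups only and leaving out each library. Genes, lists and naming rule were chosen with earlier results of these data known. Values by library are given for up to 4 called genes per class and direction with the lowest adjusted p, and for Lars2, Wars, Gars and Kars; of each context list up to 3 called genes are named. Some single-gene results that these rules would name are not reported here.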

Additional observations from a re-analysis of the deposited data

Results flagged for a closer look

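The effect of the ApoE particle differed between set 2 and set 1 for 16 of the 36 synthetase genes other than Lars2, by the interaction test in edgeR. Of all 17098 genes in that test, 31.1% passed. By class, 13 of 20 cytosolic genes had a positive difference and 1 a negative one, while 2 of 16 mitochondrial genes had a negative one. On the log2 scale, set 2 minus set 1, the difference was 2.21 for Cars, 2.07 for Aars, 1.77 for Mars, 1.72 for Yars, 1.63 for Nars, 1.53 for Gars, 1.40 for Lars and 1.35 for Iars. It was 1.11 for Tars, 1.04 for Eprs, 1.00 for Sars, 0.79 for Farsb and 0.37 for Hars. It was negative, at -0.34 for Qars, -0.42 for Iars2 and -0.61 for Wars2. The 12 genes from Cars to Farsb in this order fell in set 1 and rose in set 2. The share of all genes that did so was not computed.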

How the results depend on the processing

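The 13 cytosolic rises with the ApoE particle in set 2 stayed between 12 and 14 when any library was left out, and the 14 cytosolic falls of the reconstituted against the ApoE particle between 13 and 14. In set 1 the cytosolic genes that fell ranged from 7 to 13, those that rose from 0 to 1 and the mitochondrial falls from 0 to 3. The other counts of synthetase genes ranged as follows without 1 library: set 2 mitochondrial rises 0 to 1 and falls 0 to 1; reconstituted against ApoE particle, cytosolic rises 0 to 1 and mitochondrial falls 0 to 1; the difference between sets, cytosolic 12 to 14 positive and 0 to 2 negative, mitochondrial 0 to 1 positive and 0 to 2 negative. All-gene calls ranged from 0 to 641 (ADM, with 641 without the first ADM library), 3521 to 7610 (set 1), 2297 to 2942 (set 2), 1 to 4 (reconstituted against control), 2249 to 2809 (reconstituted against ApoE particle) and 3492 to 6245 (difference between sets). ADM called 128 genes with no filter, 333 in DESeq2 and 465 with a replicate block, among them only Lars2 of the synthetases, in DESeq2. The reconstituted particle against control called 8 with no filter, 1 with the replicate block and 4 with only those 2 groups. Library totals alone gave 1 mitochondrial rise and 0 falls in set 1, raised the share of rises among set 1 calls to 65.6% from 52.0%, and gave 2 negative cytosolic differences between sets. DESeq2 gave 0 mitochondrial falls in set 1, in set 2 and for the reconstituted against the ApoE particle, and 0 cytosolic rises in the last. Fitting only those 2 groups also gave 0 mitochondrial falls there, and the replicate block gave 0 cytosolic rises. For the difference between sets, DESeq2 and no filter each gave 0 negative cytosolic and 1 negative mitochondrial genes, and the replicate block 1 negative mitochondrial gene. In hippocampus, counting Lars2 gave 1 mitochondrial gene lower with FC and 2 higher with ApoE shRNA, and a log2 fold of at least 1 gave 0 higher.

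Sign changes were followed only for genes that passed in the main fit and for Lars2, Wars, Gars and Kars. Other genes that had not passed may have changed sign and are not listed. Among the genes followed, sign changes touched only values that had not passed in the main fit. Lars2 between the set 2 particles, which had not passed there either, ranged from -0.767 to 0.2148 without 1 library. The last value was that without the first ApoE particle library. Without 1 library the other followed log2 values that changed sign ranged from -0.1769 to 0.5451 (Gars) and from -0.0477 to 0.0622 (Kars) for ADM. In set 2 they ranged from -0.0202 to 0.0023 (Kars), from -0.14 to 0.8417 (Lars2) and from -0.0195 to 0.1653 (Wars). For the reconstituted particle Gars ranged from -0.1108 to 0.0623 against control, and Kars from -0.0691 to 0.0029 and Wars from -0.1151 to 0.0699 against the ApoE particle. Kars was also -0.013 for ADM with no filter, and with library totals alone 0.0039 in set 1 and -0.0132 for the difference between sets. The labels do not say whether replicate numbers pair libraries. Differences between same-numbered libraries correlated at 0.48 in ADM, against 0.02 in set 1 and -0.08 to 0.04 in set 2. The main ADM fit has no replicate block and so does not take up such a pairing. The causes of these changes were not tested.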
